A study of Mus musculus with 27 samples.

Results

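The genes described here are 8 transcription factors that specify and maintain the intestinal epithelium: Hnf4a, Hnf4g, Cdx1, Cdx2, Gata4, Gata6, Creb3l3 and Vdr. They were taken by name. All 8 were found in each of the 3 tables of the series, which hold 27316 genes for the mice, 23597 for the organoids and 27179 for the tumours. All 8 also passed the minimum level used for every comparison.

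The study deleted Taf4, which encodes part of TFIID, the complex that recognises core promoters, in the mouse intestine, and its 27 RNA-seq libraries form 9 groups of 3. Embryo KO (Taf4 lox/lox with VilCre, active without an inducer) and embryo WT are E17.5 intestine. Adult KO (Taf4 lox/lox with VilCreERT2, an inducible Cre) and adult WT are ileum of 8-week-old mice. The methods give Taf4 lox/lox as the genotype of the embryonic and adult controls, called WT here. Ileum-derived organoids came from 4-month-old mice. They were treated with 4-OHT, the active metabolite of tamoxifen, together with the Ezh2 inhibitor EPZ-6438 (4-OHT + EPZ), with 4-OHT, or with ethanol (control). The methods give Taf4 lox/lox with VilCreERT2 as the genotype of the 4-OHT and 4-OHT + EPZ organoids. Ileal tumours came from Taf4 KO mice with the ApcΔ14 allele (Taf4KO-Apc) or from Taf4+/+ mice with that allele (Apc), all injected with tamoxifen at an age of 6 to 8 weeks. The Villin promoter drives Cre in the epithelium, so the stroma, muscle and immune cells of each tissue keep Taf4. Mice and organoids were of C57Bl6/129sv background, and the tumours of a mixed background of the same strains.

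Several details of these groups are described differently in different places. For the mice, the labels give oil to the WT animals and tamoxifen to the KO animals, whereas the methods give tamoxifen to both. For the organoids, the labels give ethanol to the control, whereas the methods describe as control Taf4 lox/lox organoids without Cre that received 4-OHT. The labels state a dose of 1 µM 4-OHT for 3 days, which is given for 2 of the 3 libraries of the 4-OHT group. The 4-OHT + EPZ organoids also received 1 µM EPZ-6438 and were grown for 11 days according to the labels and to a later day according to the methods, so EPZ-6438 and the longer culture cannot be told apart. Replicate organoids were wells and not separate animals. Replicate 3 of the Taf4KO-Apc tumours carries the animal identifiers of both other libraries of that group, so this group may hold 2 animals.

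HNF4A and HNF4G are nuclear receptors that bind the same DNA element and keep enterocyte genes active, with HNF4A also acting in liver. CDX1 and CDX2 are homeobox factors of the caudal family, and CDX2 sets intestinal against gastric identity. GATA4 and GATA6 are zinc-finger factors, and in the small intestine GATA4 is known from the duodenum and jejunum, where it holds down genes of the ileum. CREB3L3 is a bZIP factor anchored in the membrane of the endoplasmic reticulum that is released by proteolysis and drives genes of lipid transport in liver and small intestine. VDR is the nuclear receptor for active vitamin D and controls intestinal calcium uptake.

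The mice and organoid tables give the authors' mean normalized count of each group, so they are compared here with neither a spread nor a test, and "higher" and "lower" compare 2 means. Each table was normalized separately. A gene counts as past 2-fold when log2 of the ratio of the means, each plus 1, exceeds 1 in size, among genes with a mean of at least 10 in the higher group. The means of a group summed to between 11937454 and 16583166 normalized counts. The tumour table gives FPKM for each of the 6 libraries, whose sums ran from 472342 to 509026 FPKM and whose depth relative to the deepest library, read from the steps between low values, ran from 0.587 to 0.718 in the others.

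The deletion could not be checked from gene-level values. Taf4a, the targeted gene, had a mean of 299.5 normalized counts in embryo KO and 225.6 in embryo WT, 494 in adult KO and 373 in adult WT, and 201 in 4-OHT + EPZ, 286 in 4-OHT and 264 in control organoids. In tumours Taf4 was at 13.4, 13.9 and 13.01 FPKM in the Taf4KO-Apc libraries, against 11.3, 10.5 and 11.4 FPKM in the Apc libraries. These values were lower in no group labelled KO or 4-OHT except 4-OHT + EPZ, and gene-level values do not separate the floxed exons from the rest of the gene. KO therefore stands for the label in every comparison.

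Promoters are shown for the members whose mean differed past 2-fold between KO or 4-OHT and its control and that matched an entry in the table of RefSeq promoters used (GRCm38.p6), which were 3 of 5 such members. Each window is the 250 bases before an annotated start, written 5′ to 3′ on the strand of the gene, with capitals marking the motif matches found. Creb3l3 has starts in 2 windows, chr10:81092592-81092841 and chr10:81098873-81099122, both on the minus strand. The Cdx2 window is chr5:147307250-147307499 and the Vdr window chr15:97908297-97908546, also on the minus strand.
Creb3l3, first window: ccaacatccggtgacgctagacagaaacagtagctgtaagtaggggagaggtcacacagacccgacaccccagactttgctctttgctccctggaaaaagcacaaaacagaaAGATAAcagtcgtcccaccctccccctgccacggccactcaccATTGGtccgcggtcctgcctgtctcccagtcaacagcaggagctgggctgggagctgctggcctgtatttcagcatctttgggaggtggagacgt
Creb3l3, second window: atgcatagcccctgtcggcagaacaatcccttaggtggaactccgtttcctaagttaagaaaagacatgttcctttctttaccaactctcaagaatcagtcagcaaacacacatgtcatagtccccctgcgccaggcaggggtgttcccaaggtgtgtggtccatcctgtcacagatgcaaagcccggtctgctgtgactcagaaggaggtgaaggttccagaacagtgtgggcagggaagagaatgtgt
Cdx2: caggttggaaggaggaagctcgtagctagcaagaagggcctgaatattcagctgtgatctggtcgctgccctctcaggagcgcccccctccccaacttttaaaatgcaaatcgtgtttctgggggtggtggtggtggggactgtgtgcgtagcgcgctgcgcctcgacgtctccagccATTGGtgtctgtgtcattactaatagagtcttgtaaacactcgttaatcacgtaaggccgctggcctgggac
Vdr: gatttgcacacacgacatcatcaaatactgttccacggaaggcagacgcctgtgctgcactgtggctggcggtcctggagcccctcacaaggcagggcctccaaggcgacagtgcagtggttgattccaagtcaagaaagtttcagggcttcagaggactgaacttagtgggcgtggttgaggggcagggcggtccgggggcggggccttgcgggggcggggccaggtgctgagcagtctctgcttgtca
Letters were searched on both strands for a GATA site (AGATAA, as well as the form AGATAG, the form TGATAA and the form TGATAG, found together in 26.5% of 32851 promoters), a CDX site (TTTATNG, 9.81%), an HNF4 site (CAAAGTCCA, 0.384%), a cAMP response element (TGACGTCA, 1.55%), a TATA box (TATAAA, 12.4%) and a CCAAT box (CCAAT, 33.8%). Those shares were counted over the 250 bases before the start in each RefSeq promoter, the same length as the windows shown. The first Creb3l3 window held a GATA match, AGATAA, at positions -138 to -133 from the start and a CCAAT box on the other strand, ATTGG, at positions -95 to -91. Cdx2 held a CCAAT box on the other strand at positions -72 to -68. Neither the second Creb3l3 window nor the Vdr window held any of these letters, and the GC content was 56.8% and 50.8% in the Creb3l3 windows, 55.2% for Cdx2 and 61.2% for Vdr.

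The members lie on 7 chromosomes in the mm9 annotation. Hnf4a (ENSMUSG00000017950) is on chromosome 2 from 163332544 to 163398646, Hnf4g (ENSMUSG00000017688) on chromosome 3 from 3508030 to 3659775, Cdx2 (ENSMUSG00000029646) on chromosome 5 from 148112381 to 148118846 and Creb3l3 (ENSMUSG00000035041) on chromosome 10 from 80547069 to 80561619. Gata4 (ENSMUSG00000021944) is on chromosome 14 from 63817759 to 63890529 and Vdr (ENSMUSG00000022479) on chromosome 15 from 97684856 to 97741061. Cdx1 (ENSMUSG00000024619) and Gata6 (ENSMUSG00000005836) both lie on chromosome 18, the first from 61178516 to 61195853 and the other from 11052508 to 11085633. The libraries were read over whole genes, whose merged exons spanned 1750 bases for Cdx1 and 5650 bases for Vdr.

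**Figure D1:**
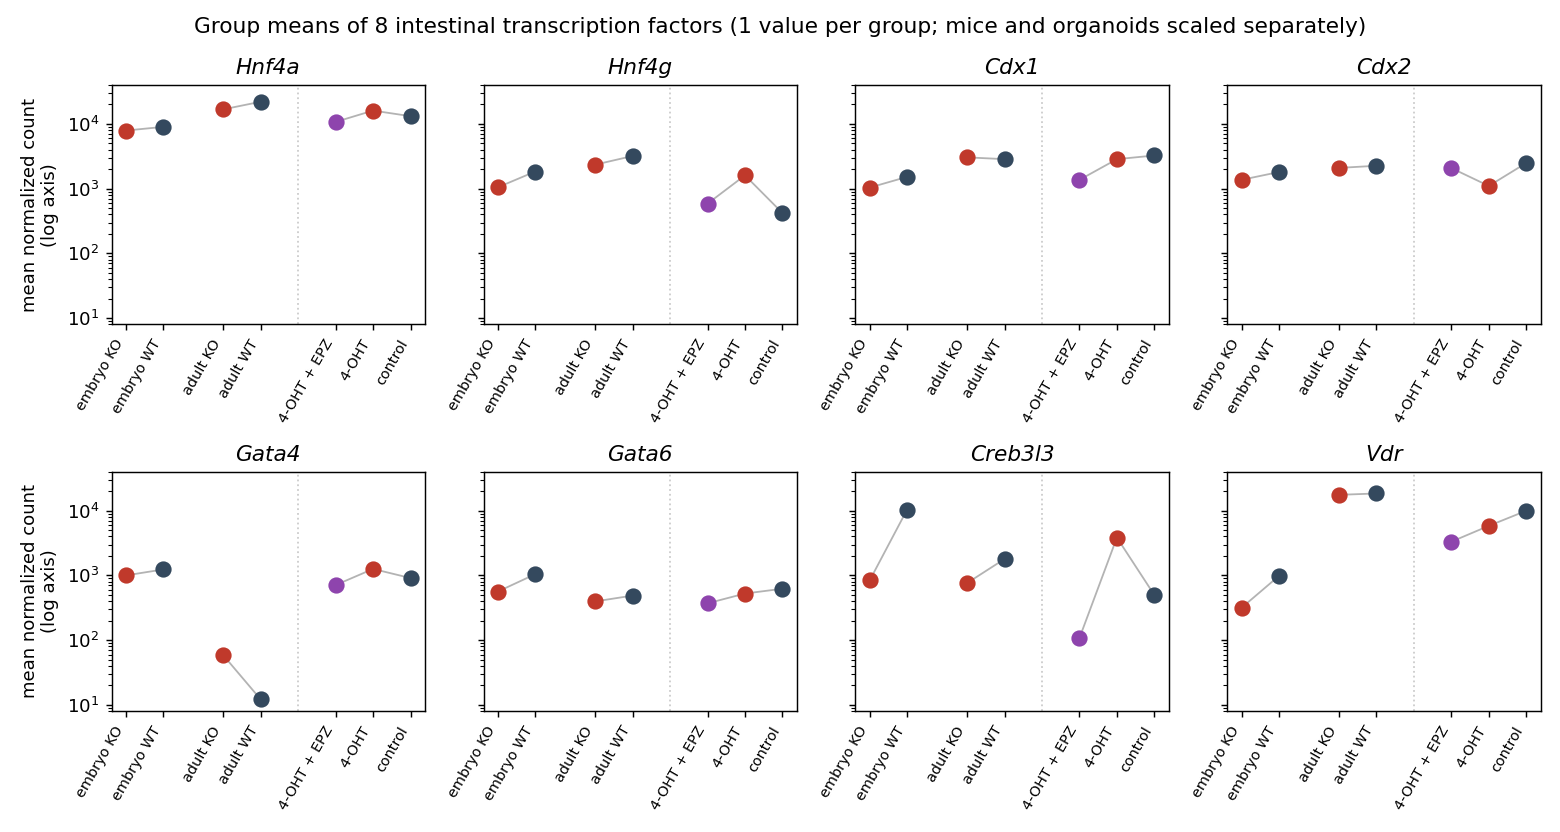
Mean normalized count (log axis) of each factor in the 7 groups of mice and organoids, 1 point per group with no error because the table gives means (red for KO or 4-OHT, dark for WT or control, purple for 4-OHT + EPZ). Creb3l3 stands 12.4-fold lower in embryo KO than in embryo WT, and Gata4 lies at 12.2 in adult WT.

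In embryonic intestine, the comparison asked what loss of Taf4 during gut morphogenesis did to these regulators. All 8 means were lower in embryo KO than in embryo WT, with a median log2 ratio of -0.68, against 0.04 for all 16484 genes measured. Creb3l3 and Vdr were past 2-fold lower, which is 2 of 8, against 8.32% of all genes. Of the 8, 0 were past 2-fold higher, against 2.16% of all genes, and 10.5% of genes were past 2-fold in either direction.

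Creb3l3 had a mean of 836 normalized counts in embryo KO and 10397 in embryo WT, a 12.4-fold lower value, and 0.722% of genes had a lower ratio. Vdr had a mean of 316 in embryo KO and 985 in embryo WT, 3.11-fold lower. The remaining members were less than 2-fold apart. Gata6 was at 562 in embryo KO and 1044 in embryo WT, a log2 ratio of -0.89, and Hnf4g was at 1048 and 1837 in the same order, a log2 ratio of -0.81. Cdx1 was at 1039 in embryo KO and 1522 in embryo WT (log2 ratio -0.55), and Cdx2 at 1369 in embryo KO and 1809 in embryo WT (-0.40). The smallest differences were those of Gata4, at 999 in embryo KO and 1237 in embryo WT, and of Hnf4a, at 7896 in embryo KO and 9000 in embryo WT. Per kilobase of exon Hnf4a was the most abundant of the 8 in embryo KO.

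Many genes that these factors are known to drive were lower in embryo KO. Of 20 known HNF4 targets 16 were past 2-fold lower and 0 higher, with a median log2 ratio of -2.06, and of 10 GATA targets 7 were lower and 0 higher (median -2.05). The sterol exporters Abcg5 (17.8 in embryo KO, 503 in embryo WT) and Abcg8 (16.8 and 363), the apolipoprotein Apoa4 (2007 and 45399) and transthyretin, Ttr (35.7 and 653), stood farthest. Of 16 CDX targets 6 were lower and 0 higher, with a median of -0.75, among them the glucose transporter Slc2a2, at 25.2 in embryo KO and 863 in embryo WT, and lactase, Lct, at 2796 and 12984. The stem cell gene Lgr5, also on the CDX list, stood the other way, at 137 in embryo KO and 97.4 in embryo WT.

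Of 11 CREB3L3 targets measured 8 were lower and 1 higher, with a median log2 ratio of -1.99. Glucose-6-phosphatase, G6pc, was at 3.05 in embryo KO and 106 in embryo WT, and the lipid droplet gene Cidec at 117 and 854. Of 8 VDR targets measured 3 were lower and 0 higher, with a median of -0.23. The manganese exporter Slc30a10, at 10.7 in embryo KO and 127 in embryo WT, was lower, whereas S100g, which encodes the calcium-binding calbindin of enterocytes, was at 2603 in embryo KO and 1425 in embryo WT. The lists overlap in every comparison, so their counts are not separate evidence. Apoa4 is on the HNF4, GATA and CREB3L3 lists, and Slc5a1 and Fabp1 are on the HNF4 and GATA lists. The CDX list holds the members Hnf4a and Cdx1, and Isx, which also counts among the other intestinal transcription factors. Enterocyte markers such as Alpi, Apoa1, Fabp1, Lct and Sis are on target lists too.

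The lower means were not spread over every intestinal regulator. Of 32 other intestinal transcription factors measured 6 were past 2-fold lower and 0 higher, with a median of -0.29. Gata5, a paralogue of Gata4 and Gata6, was at 184 in embryo KO and 352 in embryo WT. Rxra, which encodes the partner of VDR on DNA, was at 1087 in embryo KO and 1606 in embryo WT. The lipid-sensing receptor Ppara (309 and 686) and the nuclear receptor Nr1i3 (122 and 410) were past 2-fold lower.

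Markers of other cell types differed between these tissues as well. The 8 stromal markers were all higher in embryo KO, with a summed mean of 185045 against 105102 in embryo WT, and the 9 epithelial markers measured had a median log2 ratio of -0.45, with 0 past 2-fold. In bulk tissue, fewer cells of a type and less RNA per cell cannot be told apart. Relative to the median of the epithelial markers, Hnf4a (0.26), Gata4 (0.14) and Cdx2 (0.05) had log2 ratios above 0, whereas Creb3l3 (-3.18) and Vdr (-1.18) stayed past 2-fold lower. Liver markers, for a tissue that also expresses Creb3l3 and Hnf4a, were lower in embryo KO too, 4 of 5 past 2-fold, with Alb at 7.73 in embryo KO and 608 in embryo WT and Ahsg at 3.07 and 226.8. Their part in the Creb3l3 difference was not tested. Enterocyte markers, many of them also on the target lists, moved the same way, 9 of 11 being past 2-fold lower, at a median of -2.19.

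In adult ileum, the comparison asked what loss of Taf4 in an established epithelium did to the same factors. Creb3l3 was again lower and Gata4 was higher, which is 1 of 8 members past 2-fold in each direction, against 3.58% of 16748 genes higher, 6.58% lower and 10.2% in either direction. The median log2 ratio of the 8 was -0.20, and that of all genes -0.05.

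Creb3l3 had a mean of 762 normalized counts in adult KO and 1793 in adult WT, 2.35-fold lower. Gata4 had a mean of 58.5 in adult KO and 12.2 in adult WT, 4.81-fold higher, and 0.764% of genes had a higher ratio. Both Gata4 means are small, and 57.0% of genes in adult KO and 42.5% in adult WT had a lower mean than Gata4. The counting error of such means alone, taken over 3 libraries, allows a ratio of 3.37 to 6.88, and the spread between the mice, which was not analysed here, would widen it. The other GATA factors did not follow Gata4, with Gata6 at 396 in adult KO and 488 in adult WT and Gata5 at 567 and 764.

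The remaining 5 members lay close to their WT means. Hnf4a was at 16781 in adult KO and 22003 in adult WT (log2 ratio -0.39), and Hnf4g at 2347 in adult KO and 3195 in adult WT (-0.44). Cdx1 was at 3044 in adult KO and 2856 in adult WT, and Cdx2 at 2091 and 2258. Vdr, at 17562 in adult KO and 18432 in adult WT, had a log2 ratio of -0.07 in the adults, beside -1.64 in the embryos. Scaling both adult means to the same sum gave Vdr a log2 ratio of 0.10 and Cdx2 one of 0.06, so the direction of these 2 depends on the scale.

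In adult KO fewer targets were past 2-fold than in embryo KO. Of the 20 HNF4 targets 8 were past 2-fold lower and 0 higher, with a median of -0.79, among them intestinal alkaline phosphatase, Alpi (292 in adult KO, 2976 in adult WT), and the apolipoproteins Apoa1 (9477 and 71413) and Apoa4 (113 and 450). Of 10 CREB3L3 targets measured 5 were lower and 0 higher (median -0.999), with G6pc at 6.17 in adult KO and 94.0 in adult WT. Others on these lists had higher means in adult KO, such as the sodium-glucose transporter gene Slc5a1, at 7284 in adult KO and 5551 in adult WT. Of 9 GATA targets measured 4 were lower and 1 higher (median -0.79), and of 7 VDR targets measured 1 was lower and 1 higher (median -0.29). The detoxifying cytochrome Cyp3a11, on the GATA and VDR lists, was at 2.23 in adult KO and 145 in adult WT, and S100g was at 498 in adult KO and 189 in adult WT.

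CDX targets split. Of 15 measured, 2 were past 2-fold higher and 1 lower, with a median of -0.22. The metalloprotease gene Mep1a was at 2586 in adult KO and 14029 in adult WT. The higher ones were sucrase-isomaltase, Sis, at 25500 in adult KO and 6267 in adult WT, and Slc2a2, at 92.7 and 27.4. Of 31 other intestinal factors measured 2 were lower and 0 higher, among them Prdm1 (51.5 in adult KO, 203 in adult WT).

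GATA4 is known to hold down genes of ileal bile acid handling in the jejunum. Of 5 such genes measured 3 were past 2-fold lower in adult KO and 0 higher, at a median of -1.70. The same list went other ways elsewhere, with 2 of 5 higher and 2 lower in embryo KO than in embryo WT (median 0.49). In 4-OHT against control organoids 2 of 4 were higher and 0 lower (median 1.33), at low summed means of 693 in 4-OHT and 205 in control. The part of Gata4 in these directions was not tested. Fabp6, the bile acid carrier of ileal enterocytes, was at 35749 in adult KO and 116490 in adult WT, and the basolateral exporter subunit Ostb at 1106 and 4290. The hormone gene Fgf15 was at 2.64 in adult KO and 80.7 in adult WT. The apical transporter Slc10a2 (3964 in adult KO, 4853 in adult WT) and Osta (5361 and 7999) were less than 2-fold apart. Whether the tissue pieces came from the same stretch of ileum was not tested. Epithelial markers had a median log2 ratio of -0.08, with 0 of 9 past 2-fold, whereas enterocyte markers were past 2-fold lower in adult KO in 8 of 11 cases and higher in 1, at a median of -1.56. Their part in the members' values was not tested.

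**Figure D2:**
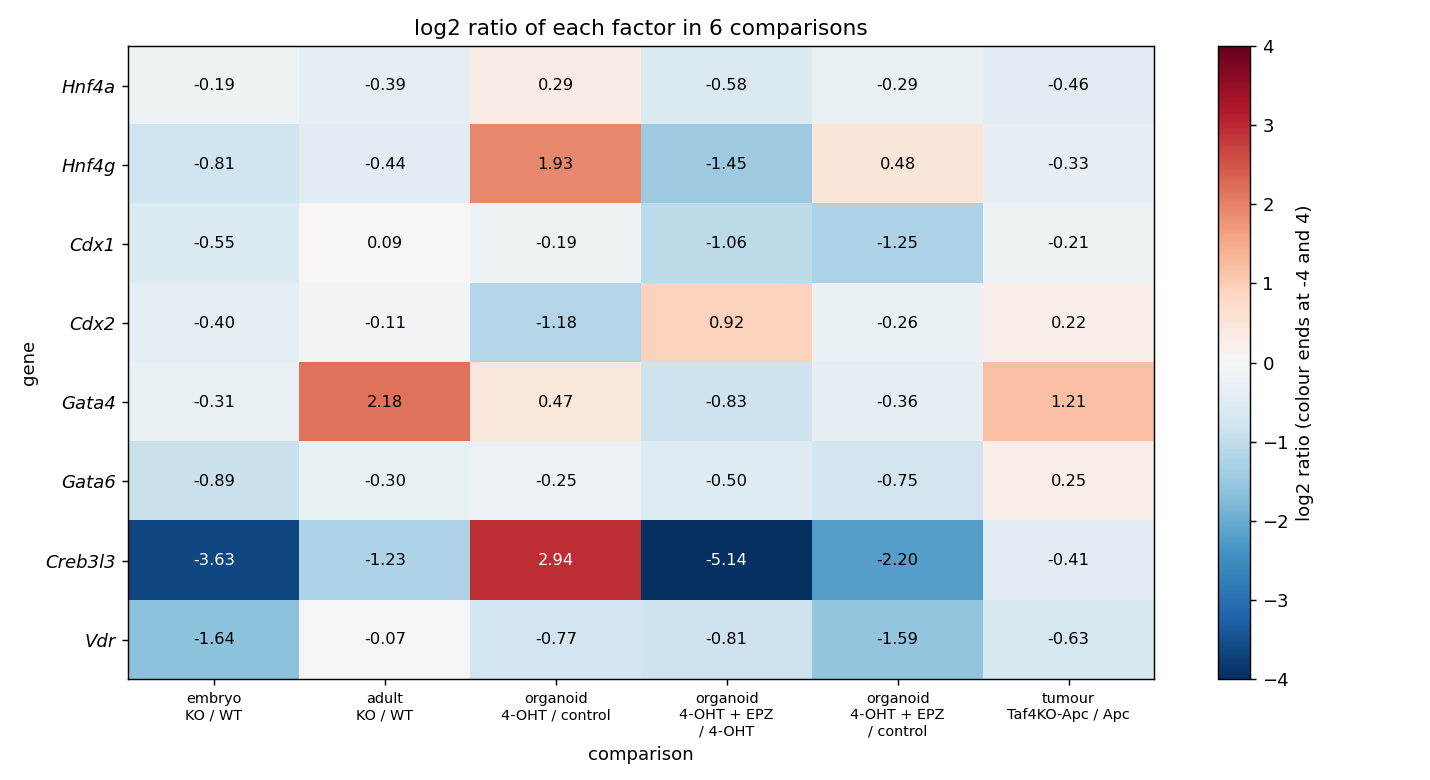
Log2 ratio of each factor in 6 comparisons, with the group named first above its control; blue is lower and red higher, and values come from group means except for tumours, where they come from 3 libraries a group. Creb3l3 spans -5.14 to 2.94 and Hnf4a -0.58 to 0.29.

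The factors kept different schedules between E17.5 and adulthood. Between WT tissues, 2 of 8 were past 2-fold higher in adult WT than in embryo WT and 3 lower, against 18.3% and 15.2% of 17381 genes, or 33.4% in either direction. Vdr was at 18432 in adult WT and 985 in embryo WT, 18.7-fold higher, and Hnf4a at 22003 and 9000, 2.44-fold higher. Gata4 was at 12.2 in adult WT and 1237 in embryo WT, 102-fold lower. Creb3l3 (1793 in adult WT, 10397 in embryo WT) was 5.80-fold lower, and Gata6 (488 and 1044) 2.14-fold lower. Embryonic tissue was labelled intestine and adult tissue ileum, so stage and segment cannot be told apart.

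Between KO tissues, 4 of 8 members were past 2-fold higher in adult KO than in embryo KO and 1 lower, against 19.1% and 17.2% of 17312 genes, or 36.3% in either direction. Vdr was 55.5-fold higher in adult KO, since its embryo KO mean was the lowest of the 4 groups, and Gata4 was 17.1-fold lower. Creb3l3 stood at 762 in adult KO and 836 in embryo KO, so the gap between stages in WT tissue was not present between the KO means. Epithelial content differed as well, with 7 of 9 epithelial markers past 2-fold higher in adult WT than in embryo WT. Relative to the median of those markers, 1 member (Vdr) was past 2-fold higher and 4 were lower (Gata4, Gata6, Creb3l3 and Cdx2) between the WT stages, and the counts were the same, for the same genes, between the KO stages. The log2 ratio of Hnf4a between WT stages was then -0.33 and not 1.29, and that of Creb3l3 between KO stages was -1.87 and not -0.13.

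Target genes were not all on the side of their factor. Of 20 HNF4 targets 10 were past 2-fold lower in adult WT and 6 higher (median -0.91), while Hnf4a was higher. Ileal bile acid genes, which GATA4 is known to hold down in the jejunum, were higher in 5 of 5 cases, while Gata4 was lower. Fabp6 was at 116490 in adult WT and 214 in embryo WT, and Slc10a2 at 4853 and 12.2. Among GATA targets, Lct, which is lost after weaning, was at 2.37 in adult WT and 12984 in embryo WT, and Sis, which appears at weaning, at 6267 and 20.3. Fabp1, a fatty acid carrier of the upper small intestine, was at 103 in adult WT and 56479 in embryo WT. The VDR target S100g was at 189 in adult WT and 1425 in embryo WT, opposite to Vdr itself.

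In organoids, the comparison asked what inactivation of Taf4 by 4-OHT did in epithelium without stroma. By the labels 4-OHT itself also differs between the groups, whereas by the methods both received it. By the methods the groups also came from mice with and without Cre, so donor, Cre and loss of Taf4 cannot be told apart. Creb3l3 and Hnf4g were past 2-fold higher in 4-OHT than in control organoids and Cdx2 was lower, which is 2 of 8 and 1 of 8, against 11.9% of 13929 genes higher, 11.3% lower and 23.2% in either direction. The median of the 8 was 0.05, and that of all genes was 0.00318, so the group did not move one way.

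Creb3l3 had a mean of 3838 normalized counts in 4-OHT and 498 in control organoids, 7.70-fold higher. Its direction was thus opposite to both mouse comparisons. Hnf4g had a mean of 1605 in 4-OHT and 420 in control organoids, 3.82-fold higher, whereas its paralogue Hnf4a was at 16070 and 13158. Cdx2 had a mean of 1101 in 4-OHT and 2493 in control organoids, 2.26-fold lower, whereas its paralogue Cdx1 was at 2853 and 3253. Gata4 (1259 in 4-OHT, 910 in control) and Gata6 (525 and 622) were less than 2-fold apart. Vdr, at 5828 in 4-OHT and 9969 in control organoids, had a log2 ratio of -0.77.

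Most targets were higher with 4-OHT, those on the CDX list included, although Cdx2 was lower. Of the 20 HNF4 targets 15 were past 2-fold higher in 4-OHT organoids and 0 lower (median 1.98), of 10 GATA targets 8 were higher and 0 lower (median 2.92), and of 10 CREB3L3 targets measured 6 were higher and 2 lower (median 1.30). Fabp1 was at 18866 in 4-OHT and 724 in control organoids, and Apoa4 at 15796 and 2204. Of 15 CDX targets measured 8 were higher and 1 lower, at a median of 1.15. Sis was at 23279 in 4-OHT and 2834 in control organoids, the keratin Krt20 at 7431 and 751, and Lgr5 at 643 and 2605. Of 7 VDR targets measured 3 were higher and 0 lower, with Cyp3a11 at 45914 in 4-OHT and 2773 in control organoids.

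Markers of maturation and of dividing cells also differed between these organoids. Enterocyte markers were past 2-fold higher in 4-OHT organoids in 11 of 12 cases and lower in 0, with a median of 2.92. Crypt and dividing cell markers were lower in 7 of 8 cases and higher in 0, with a median of -2.15; the stem cell marker Olfm4 was at 152 in 4-OHT and 4947 in control organoids, and the proliferation marker Mki67 at 312 and 1667. Of 9 epithelial markers 3 were higher, at a median of 0.48, and relative to that median Vdr was also past 2-fold lower (-1.25), while Hnf4a (-0.19) and Gata4 (-0.01) turned below 0. The part of this shift in the Creb3l3, Hnf4g and Cdx2 values was not tested. Of 31 other intestinal factors measured 5 were higher and 2 lower, with Nr1i3 at 907 in 4-OHT and 94.2 in control organoids, Ppara at 700 and 164, and Foxa2 at 95.2 and 390.

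Levels of Fabp6, Isx and Gata4 in the organoids, which are labelled as ileum-derived, differed from those in adult ileum. Adult ileum held Fabp6 at 35749 or more in both groups, whereas the organoid means were 24.6 in 4-OHT + EPZ, 0.723 in 4-OHT and 3.41 in control. Isx, a homeobox gene of the small intestine that CDX2 is known to drive, was listed at 0.162 in 4-OHT + EPZ, 0 in 4-OHT and 0.247 in control organoids, and at 1429 in adult KO and 2266 in adult WT ileum. Gata4, low in adult ileum, was at 709 or more in all 3 organoid groups. The tables were normalized separately and culture differs from tissue, so these levels stand side by side without a test, and the origin of the difference was not tested.

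**Figure D3:**
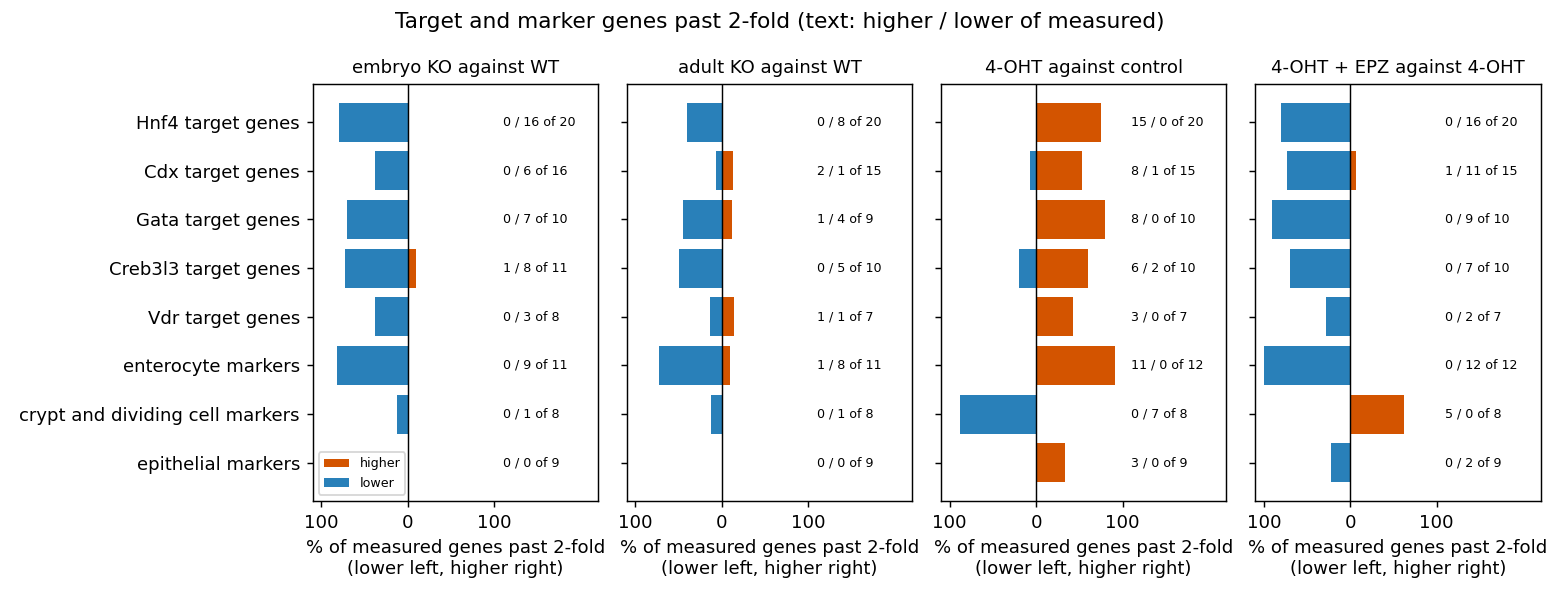
Share of measured target and marker genes past 2-fold (horizontal axis, %; lower to the left in blue, higher to the right in orange), with the counts printed as higher / lower of measured. Of 20 HNF4 targets 16 are lower in embryo KO, 8 in adult KO and 16 with EPZ-6438, and 15 are higher in 4-OHT than in control organoids.

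Adding EPZ-6438 to 4-OHT went with lower means of most of these factors. Against 4-OHT alone, 3 of 8 were past 2-fold lower in 4-OHT + EPZ and 0 higher, against 18.0% of 14109 genes lower, 17.2% higher and 35.2% in either direction. The median log2 ratio of the 8 was -0.82, that of all genes 0.01. Creb3l3 was at 108 in 4-OHT + EPZ and 3838 in 4-OHT, 35.7-fold lower, and 0.354% of genes had a lower ratio. Hnf4g, at 586 in 4-OHT + EPZ and 1605 in 4-OHT, was 2.74-fold lower, and Cdx1, at 1367 and 2853, was 2.09-fold lower.

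Cdx2 alone had a higher mean, at 2079 in 4-OHT + EPZ and 1101 in 4-OHT, a ratio of 1.89. Vdr (3315 in 4-OHT + EPZ, 5828 in 4-OHT), Gata4 (709 and 1259), Hnf4a (10736 and 16070) and Gata6 (371 and 525) were lower by less than 2-fold. Relative to the median of the epithelial markers, 1 member was past 2-fold higher (Cdx2, log2 ratio 1.52) and 1 lower (Creb3l3, -4.54), so the calls for Hnf4g and Cdx1 depend on that scale. The log2 ratios of Hnf4a (0.02) and Gata6 (0.10) turned above 0 on it.

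Against control organoids, 3 of 8 members were past 2-fold lower in 4-OHT + EPZ and 0 higher, against 13.3% of 14001 genes lower, 12.4% higher and 25.7% in either direction. They were Creb3l3 (108 in 4-OHT + EPZ, 498 in control, 4.63-fold lower), Vdr (3315 and 9969, 3.01-fold lower) and Cdx1 (1367 and 3253, 2.38-fold lower). Hnf4g, at 586 in 4-OHT + EPZ and 420 in control organoids, and Cdx2, at 2079 and 2493, lay nearer to their control means than the 4-OHT means did. Relative to the median of the epithelial markers 2 were past 2-fold lower, with Cdx1 at -0.99 and so no longer past it. Enterocyte markers were past 2-fold lower in 4-OHT + EPZ than in control organoids in 8 of 12 cases and higher in 2 (median -1.39), and crypt and dividing cell markers lower in 4 of 8 and higher in 0 (median -0.77). Both of these comparisons and the one of 4-OHT with control share libraries, so their directions are not separate evidence.

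The median of each of the 5 target lists was below 0 in 4-OHT + EPZ against 4-OHT organoids. The counts past 2-fold were 16 of 20 HNF4 targets lower and 0 higher (median -2.40), 9 of 10 GATA targets lower and 0 higher (-3.87), and 7 of 10 CREB3L3 targets lower and 0 higher (-3.00). Of 15 CDX targets 11 were lower and 1 higher (-1.29), and of 7 VDR targets 2 were lower and 0 higher (-0.67). Apoa4 was at 70.8 in 4-OHT + EPZ and 15796 in 4-OHT, Lct at 6.82 and 6486, and G6pc at 3.17 and 281. Lgr5 was the CDX-list gene that stood higher, at 2009 in 4-OHT + EPZ and 643 in 4-OHT. Enterocyte markers were past 2-fold lower in 12 of 12 cases and crypt markers higher in 5 of 8, and the part of this shift in the members' values was not tested.

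Of 31 other intestinal factors measured 14 were past 2-fold lower in 4-OHT + EPZ than in 4-OHT and 2 higher (median -0.83). Nr2f6, an orphan nuclear receptor, was at 187 in 4-OHT + EPZ and 1742 in 4-OHT, Ppara at 89.2 and 700, and Rxra at 661 and 1464. Gata5 was at 117 in 4-OHT + EPZ and 256 in 4-OHT organoids.

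The balance within each pair of paralogues was compared per kilobase of merged exon, so that levels of different genes share a scale. Hnf4g made up 13.3% of the summed Hnf4a and Hnf4g level in embryo KO and 19.1% in embryo WT, 13.9% in adult KO and 14.3% in adult WT, and 5.92% in 4-OHT + EPZ, 10.3% in 4-OHT and 3.55% in control organoids. Hnf4a was thus the main HNF4 transcript in all 7 groups. Cdx2 made up 50.5% of the CDX pair in embryo KO and 47.9% in embryo WT, 34.7% in adult KO and 38.0% in adult WT, and 54.1% in 4-OHT + EPZ, 23.0% in 4-OHT and 37.2% in control organoids. Gata6 made up 40.8% of the GATA pair in embryo KO and 50.8% in embryo WT, 89.2% in adult KO and 98.0% in adult WT, and 39.0% in 4-OHT + EPZ, 33.8% in 4-OHT and 45.6% in control organoids. Gata6 was therefore nearly the whole GATA4 and GATA6 pool of adult ileum and the smaller part of it in each organoid group.

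**Figure D4:**
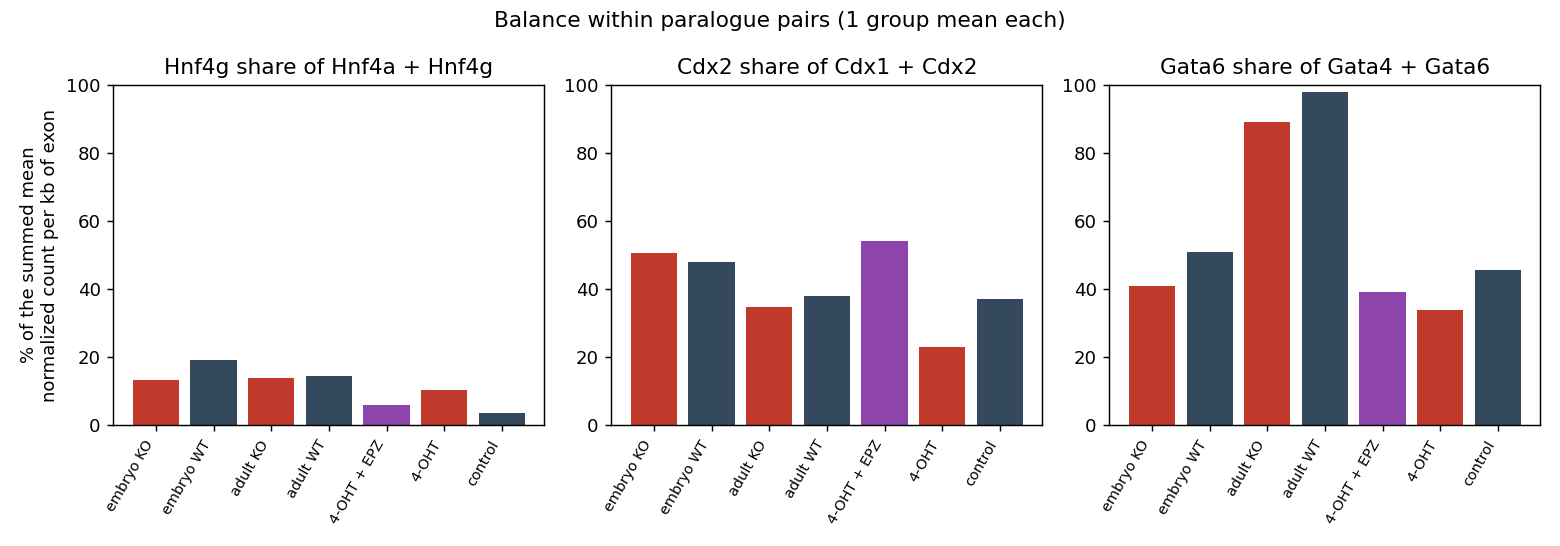
Share of the second paralogue (%) in the summed level per kilobase of exon for 3 pairs in the 7 groups of mice and organoids, 1 bar per group mean. Gata6 reaches 98.0% of its pair in adult WT, and Cdx2 lies at 23.0% of its pair in 4-OHT organoids.

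Over the 7 group means, centred within each table, the members did not share 1 pattern. As a description without a test, Hnf4a and Vdr ran together (Pearson r = 0.93, n = 7 group means), as did Cdx1 and Vdr (0.90), and Hnf4a and Gata4 ran opposite (-0.90). Paralogues were less alike, at 0.73 for Hnf4a and Hnf4g, 0.65 for Gata4 and Gata6 and 0.32 for Cdx1 and Cdx2. Creb3l3 was nearest to Gata6 (0.73). The stage difference weighs on all of these values, since 4 of the 7 groups are mice of 2 stages.

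Among 9499 genes with a mean of at least 100 in some group of both tables, the patterns most like those of the members, each over 7 group means, belonged to genes of varied kinds. For Hnf4a they were the carnitine and ergothioneine transporter Slc22a4 and Tmcc3 (r = 0.998 each), and for Hnf4g the kinase gene Sgk1 (0.996) and the lipase gene Liph (0.995). For Cdx1 they were Tmem129 (0.992) and the tight junction gene Tjp3 (0.990), and for Cdx2 the water channel gene Aqp4 (0.990) and the carbonic anhydrase gene Car12 (0.984). Aqp4 was at 222 in 4-OHT + EPZ, 11.5 in 4-OHT and 485 in control organoids, which is a wider range than that of Cdx2. For Gata4 they were Tomm20 (0.996) and Pex10 (0.989), for Gata6 the folate transporter Slc19a1 (0.988) and Vps39 (0.978), for Creb3l3 Capn10 (0.998) and Sertad2 (0.995), and for Vdr Tspo (0.997) and Churc1 (0.995). With 9499 genes and 7 points, high values of r arise for many pairs.

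In ileal tumours, the comparison asked what loss of Taf4 did to the factors in Apc-driven tumours, and here each library has its own value. Of the 8 factors 0 were called by limma at an adjusted p under 0.05 and a log2 difference over 1 in size, against 0.616% of 13794 genes tested, of which 19 (0.138%) were higher and 66 (0.478%) lower in Taf4KO-Apc. At the adjusted p alone, 0 of the 8 passed, against 0.921% of all genes. Adjusted p-values of the members in limma ran from 0.159 to 0.664, 1 member had an unadjusted p under 0.05, and in 0 of 8 did the libraries of both groups fail to overlap, against 35.4% of all genes.

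Gata4 stood nearest to a difference. It was at 12.7, 44.3 and 27.9 FPKM in the Taf4KO-Apc libraries, against 7.75, 10.7 and 13.1 FPKM in the Apc libraries. The first Taf4KO-Apc library lay below the highest Apc library, so the groups overlapped. The means were 28.3 ± 15.8 FPKM in Taf4KO-Apc and 10.5 ± 2.69 FPKM in Apc (SD, n = 3 libraries each). Limma gave a log2 difference of 1.21 with a standard error of 0.45, an unadjusted p of 0.0340 and an adjusted p of 0.159. These values count the third Taf4KO-Apc library, which carries the identifiers of both others, as a separate animal, which it may not be. Gata4 was also higher in adult KO than in adult WT ileum.

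Vdr had the widest gap in the other direction, and 1 library set it. It was at 14.5, 37.3 and 23.3 FPKM in Taf4KO-Apc, against 79.5, 24.3 and 25.3 FPKM in Apc, a log2 difference of -0.63 ± 0.54 (SE) with a limma adjusted p of 0.466. Without the first Apc library the log2 difference was -0.08. Creb3l3 was at 27.7, 71.4 and 51.5 FPKM in Taf4KO-Apc, against 28.4, 113 and 75.9 FPKM in Apc (log2 difference -0.41 ± 0.57, limma adjusted p 0.647). Its spread of more than 2-fold within each group exceeded the gap between the groups.

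Hnf4a was at 97.9, 158 and 122 FPKM in Taf4KO-Apc, against 196, 140 and 178 FPKM in Apc. The means were 126 ± 30.0 and 171 ± 28.9 FPKM in that order (SD, n = 3 each), a log2 difference of -0.46 ± 0.21 (SE) with a limma adjusted p of 0.225. Hnf4g was at 9.18, 34.1 and 18.6 FPKM in Taf4KO-Apc, against 35.3, 18.5 and 18.8 FPKM in Apc, a log2 difference of -0.33 ± 0.49 (limma adjusted p 0.664). Both HNF4 genes overlapped between the groups.

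Cdx1 was at 35.4, 52.0 and 52.3 FPKM in Taf4KO-Apc, against 73.0, 39.8 and 51.2 FPKM in Apc (log2 difference -0.21 ± 0.26). Cdx2 was at 52.1, 81.7 and 71.9 FPKM in Taf4KO-Apc, against 71.0, 50.0 and 54.8 FPKM in Apc (0.22 ± 0.21). Gata6 was at 27.1, 23.3 and 26.9 FPKM in Taf4KO-Apc, against 18.6, 22.6 and 23.5 FPKM in Apc (0.25 ± 0.13). Limma's adjusted p was 0.621 for Cdx1, 0.521 for Cdx2 and 0.253 for Gata6, and the ranges of both groups overlapped for each. The median log2 difference of the 8 was -0.27, against 0.14 for all genes.

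**Figure D5:**
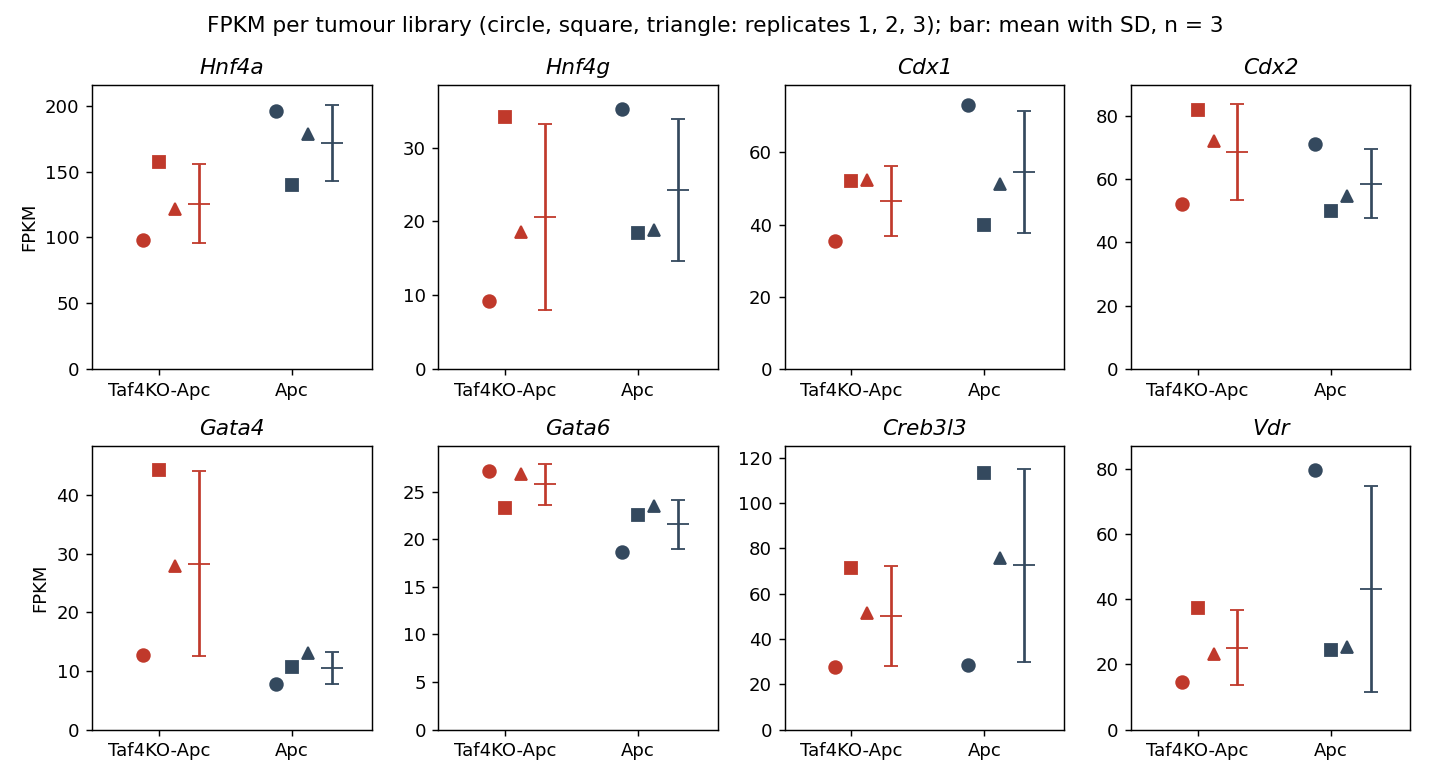
FPKM of each factor in the 6 tumour libraries (circle, square and triangle are replicates 1, 2 and 3; the bar beside them is the mean with its SD, n = 3). Gata4 reaches 44.3 FPKM in Taf4KO-Apc and stays between 7.75 and 13.1 FPKM in Apc.

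A few genes on the target lists were called in tumours, where 0.616% of all genes tested were called. No gene stayed called when the Taf4KO-Apc library with the identifiers of both others was left out, so these calls rest on counting it as separate. Of 19 HNF4 targets tested 0 were higher and 1 lower, the metalloprotease gene Mep1a, at 5.53, 4.46 and 4.73 FPKM in Taf4KO-Apc against 146, 88.9 and 58.6 FPKM in Apc, a log2 difference of -3.97 with a limma adjusted p of 0.0215. Mep1a was also the 1 called of 16 CDX targets. Of 11 CREB3L3 targets 1 fell, G6pc, at 0.102, 0.400 and 0.190 FPKM in Taf4KO-Apc against 2.09, 2.496 and 2.65 FPKM in Apc, a log2 difference of -1.48 with a limma adjusted p of 0.0262. Of 10 GATA targets and of 7 VDR targets 0 were called, and of 32 other intestinal factors 0.

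Of the 5 ileal bile acid genes 2 fell and 0 rose, against 0.478% and 0.138% of all genes tested, with a median log2 difference of -3.23. For all 5, every Taf4KO-Apc library lay below every Apc library. The groups did not overlap, in either direction, in 35.4% of all genes, and the Taf4KO-Apc libraries may come from 2 animals. The exporter subunit Slc51a (called Osta in the mouse table) was at 35.6, 34.1 and 34.3 FPKM in Taf4KO-Apc against 350, 162 and 146 FPKM in Apc, a log2 difference of -2.51 with a limma adjusted p of 0.0416. Slc51b (Ostb) was at 13.9, 19.2 and 14.8 FPKM in Taf4KO-Apc against 250, 148 and 104 FPKM in Apc, a log2 difference of -3.23 with a limma adjusted p of 0.0267. Fabp6 was at 134, 12.0 and 79.9 FPKM in Taf4KO-Apc against 7863, 1219 and 1537 FPKM in Apc, which did not pass (log2 difference -5.56, limma adjusted p 0.0657), nor did Fgf15 (-4.34, 0.0547) or Slc10a2 (-1.87, 0.0582).

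Cell markers and 1 library of doubtful origin stand beside the tumour values. Enterocyte markers summed to 1544 to 6997 FPKM in Taf4KO-Apc and to 4700 to 12590 FPKM in Apc, and the 10 epithelial markers had a median log2 difference of -0.05 with 0 called. Replicate 3 of Taf4KO-Apc lay between replicates 1 and 2 of its group for 63.5% of genes, against 16.6% to 40.3% in the other libraries. Leaving out any 1 Taf4KO-Apc library left 0 to 2 genes called by limma of the 85 called with all libraries, and no factor was called with or without any library.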

How the data were processed

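RNA was sequenced from 27 mouse libraries. The study's notes and methods name bcl2fastq 2.17.1.14, cutadapt 1.10, Bowtie2 2.2.8, STAR 2.5.3a and HTSeq, with mm9 and mm10 both listed as builds. Both a stranded TruSeq kit and an amplified cDNA kit are described, and which one holds was not settled. For mice and organoids the authors deposited, as a signal per gene, the mean of DESeq2-normalized counts in each group of 3 libraries, in a table per experiment. Columns with the authors' own fold changes and p-values were not used. The authors gave the tumours as deposited FPKM values, a column for each library, keyed by Entrez gene. The number of columns of unknown samples was 0.

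Means were compared as log2((mean + 1)/(mean + 1)) for genes whose higher mean reached 10, with 2-fold as the limit and without a test. Tumours were tested with limma 3.58.1 (R 4.3.3) on log2(FPKM + 1) for genes averaging at least 1 FPKM in a group, with Benjamini-Hochberg adjustment over all genes tested, a threshold of 0.05 and an absolute log2 difference over 1. These folds understate changes of low genes. Scripts ran in Python 3.11.15 with pandas 2.3.3 and numpy 2.4.6, and the limma script was tested on simulated data. Absolute depth is unknown, which leaves no interval for FPKM values. Of the 6 tumour libraries 5 carry different animal identifiers and 1 carries those of 2 others, so the limma p-values treat as separate a library that may not be.

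The 8 members, the target lists (textbook knowledge) and the marker lists were chosen with earlier results of these data known. Genes named beside the members were, for each list and comparison, up to 4 with the largest change in the direction of the list's median and up to 2 against it, the paralogues and partners Rxra, Isx, Ppara and Gata5, and the 2 genes most like each member. A few others, such as the remaining ileal genes, were named after their values were seen, and some genes that the rule names are not reported here. Alternatives were other pseudocounts and minimums, other scalings, leaving out each tumour library and a replicate block.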

Additional observations from a re-analysis of the deposited data

How the results depend on the processing

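Of the comparisons of means, the count of members past 2-fold stayed within 1.5 times its value under every alternative except 2. A minimum mean of 100 left 1 member past 2-fold in adult KO against WT instead of 2, because Gata4 then dropped out, and scaling the group means to the same sum left 3 instead of 5 in adult KO against embryo KO. Relative to the median of the epithelial markers the stage comparisons kept their count of 5 but not its split, which became 1 higher and 4 lower in both, against 2 and 3 for WT and 4 and 1 for KO. The log2 ratios of Hnf4a, Hnf4g, Cdx1 and Cdx2 turned to -0.33, -0.82, -0.71 and -1.30 in adult WT against embryo WT, and to -0.65, -0.57, -0.18 and -1.12 in adult KO against embryo KO. That centring moved the median of all genes to -1.60 in adult WT against embryo WT and to -1.69 in adult KO against embryo KO, by construction. Within the limit of 1.5 times, it also changed the split in 4-OHT + EPZ against 4-OHT organoids. There 0 higher and 3 lower became 1 higher and 1 lower.

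In tumours, 85 genes were called by limma, with 56 relative to the epithelial markers, 140 with a prior spread that follows expression, and 0 to 180 when 1 library was left out (180 without Apc replicate 1, 24 without Apc replicate 2, 2 without Taf4KO-Apc replicate 1 and 0 without replicate 2 or 3 of Taf4KO-Apc). Leaving out a library tests fewer samples, and beyond that the cause was not tested. With a replicate block 1 gene was called, but the numbers do not pair the libraries, whose same-numbered deviations correlated at -0.17, -0.20 and -0.04. Of the members 0 were called under any alternative. Leaving out 1 library gave log2 differences of -0.77 to 0.12 for Hnf4g, -0.41 to 0.021 for Cdx1 and -0.97 to 0.0066 for Creb3l3, so their direction rests on single libraries, while Gata4 stayed at 0.82 to 1.68. No paired analysis was possible because the mice and organoid tables give 1 mean per group.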

Other observations

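Among factors of other foregut organs, Sox17, which marks the early endoderm and the biliary tree, was at 119, 86.0 and 113 FPKM in Taf4KO-Apc tumours against 22.1, 36.9 and 42.8 FPKM in Apc tumours. Its limma adjusted p was 0.0535 at a log2 difference of 1.65, so it did not pass. The libraries of both groups did not overlap, as in 35.4% of all genes. Of 3 such factors measured in organoids, 1 was past 2-fold higher in 4-OHT than in control and 2 lower, against 11.9% and 11.3% of all genes. Pdx1, a factor of duodenum and pancreas, had a mean of 3.08 normalized counts in 4-OHT + EPZ organoids, was listed at 0 in 4-OHT organoids and had a mean of 28.6 in control organoids. These genes were named after their values were seen.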
